A study of Mus musculus with 8 samples.

Results

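The aryl hydrocarbon receptor (AHR) genes of mouse follicular cells are described here across siRNA and estradiol (E2) treatments. The 8 genes were Ahr, Arnt, Ahrr, Tiparp, Cyp1a1, Cyp1b1, Cyp2s1 and Nqo1. They were found by their Entrez gene IDs among the 24232 genes of the deposited array table, and all 8 were present. Of these, 7 passed the filter of a median scaled signal of at least 10 units and entered the test across 15637 genes, and Cyp1a1 did not.

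AHR is a transcription factor that waits in the cytoplasm with heat shock proteins until a ligand binds it. It then enters the nucleus, pairs with ARNT and binds a short DNA element beside its target genes. Among the classic targets are the cytochromes P450 CYP1A1 and CYP1B1, the oxidoreductase NQO1, and AHRR and TIPARP, both of which restrain the receptor. CYP1A1 and CYP1B1 convert estradiol to catechol estrogens. CYP2S1 is a less studied P450 that is also inducible through AHR. In the ovary, AHR has been linked to follicle growth and to the action of dioxins on granulosa cells, the cells that surround and nourish the oocyte.

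The cells came from preantral and small antral follicles of Swiss mice aged 8 weeks, with 5 animals pooled per replicate, and were cultured for 9 days in all. All cells received 12 pmol of siRNA together with 200 ng of pDsRed plasmid, in medium whose serum had been stripped of hormones. The siRNA was a non-targeting pool (control siRNA) or a pool against Foxl2, a transcription factor of granulosa cells (FOXL2 siRNA). The labels and the study's methods count 24 h of growth up to lysis, whereas its results text places 24 h of siRNA before the E2. Vehicle (ethanol) or 100 nM E2 was given for 10 h up to lysis, which gave 4 groups of 2 one-colour Agilent arrays, each siRNA being combined with vehicle and with E2. The comparisons ask what depletion of FOXL2 does to each gene, what E2 does, and whether the E2 effect differs between the siRNAs. Signals are given on the log2 scale after scaling each array to its 75th percentile, so a difference of 1 is a doubling of the signal.

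Both labels were checked first. At the level of the gene, Foxl2 was not lower in the arrays labelled FOXL2 siRNA (change over both treatments 0.18, SE 0.10, limma adjusted p = 0.334). Its 2 probes moved apart, the bright one by 0.18 and the dim one by -0.97 (limma adjusted p = 0.0199 in the fit of single probes). By qPCR, the study reports a marked fall of the mRNAs that its siRNA pools target, Foxl2 included. It shows this with its nuclear receptor knockdowns, an experiment separate from these arrays. Groups are therefore named as labelled. Of the granulosa markers, Inha, Inhba, Nr5a1, Esr2 and Foxl2 were at high signal and well above background on all 8 arrays. Cyp19a1 was well above background on 6 of 8, with low group means of 3.69 to 4.64, and Fshr and Amh on 0 of 8. The oocyte markers Zp1, Zp2, Zp3, Bmp15 and Oosp1 were also at background on every array, but Gdf9 was well above background on all 8 and Dppa3 on 1. In addition, the study describes E2 responses of control cells in the direction opposite to the one found between the arrays labelled control siRNA with E2 and control siRNA with vehicle. The difference between the E2 effects was called for 38 of 15637 genes as labelled, and for 0 with both of these labels exchanged. Which of the 2 control siRNA groups received E2 was not tested. Values with both labels exchanged are therefore also given, beside the calls that turn on it or in the closing section. The mean effect of FOXL2 siRNA over both treatments and the E2 effect with FOXL2 siRNA are the same under either reading. RNA came from whole cultures, in which fewer cells of a type and less RNA per cell cannot be told apart.

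Promoter sequences are shown for the genes on which the results turn and for the standard AHR target Cyp1a1. They show where the letters of the receptor's core element occur near the start site. Windows run from 250 bases before to 50 bases after the start site and are from RefSeq on GRCm38.p6, given 5′ to 3′ along the gene. Capitals mark the AHR-ARNT core, GCGTG on either strand (CACGC when it lies on the other strand). Cyp2s1 lies on the minus strand at chr7:25816476-25816775, Tiparp on the plus strand at chr3:65528197-65528496, Cyp1b1 on the minus strand at chr17:79715012-79715311 and Cyp1a1 on the plus strand at chr9:57697363-57697662.

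Cyp2s1: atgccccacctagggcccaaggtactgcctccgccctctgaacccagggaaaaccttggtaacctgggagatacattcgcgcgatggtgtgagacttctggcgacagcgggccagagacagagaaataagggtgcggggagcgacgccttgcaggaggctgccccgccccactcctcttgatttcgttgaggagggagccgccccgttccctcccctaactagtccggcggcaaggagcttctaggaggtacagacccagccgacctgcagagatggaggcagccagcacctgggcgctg

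Tiparp: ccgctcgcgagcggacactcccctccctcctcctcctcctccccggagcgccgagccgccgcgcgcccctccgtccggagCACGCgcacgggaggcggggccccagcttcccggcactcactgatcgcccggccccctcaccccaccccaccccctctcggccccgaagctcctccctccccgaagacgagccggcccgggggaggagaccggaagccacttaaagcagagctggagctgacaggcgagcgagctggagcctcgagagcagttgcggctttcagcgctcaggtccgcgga

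Cyp1b1: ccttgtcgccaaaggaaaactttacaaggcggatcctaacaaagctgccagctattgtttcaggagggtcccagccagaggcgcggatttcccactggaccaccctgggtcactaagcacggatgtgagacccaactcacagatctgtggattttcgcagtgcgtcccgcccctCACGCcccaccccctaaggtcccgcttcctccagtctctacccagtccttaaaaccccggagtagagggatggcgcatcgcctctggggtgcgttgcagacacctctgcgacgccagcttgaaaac

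Cyp1a1: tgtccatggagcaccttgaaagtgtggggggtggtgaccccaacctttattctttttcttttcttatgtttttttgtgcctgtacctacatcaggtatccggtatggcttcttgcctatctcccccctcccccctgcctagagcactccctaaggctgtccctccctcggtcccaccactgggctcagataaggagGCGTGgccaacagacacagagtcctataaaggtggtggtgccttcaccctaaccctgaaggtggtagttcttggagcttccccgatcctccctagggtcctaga

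Only these windows were searched, so sites farther from the start site are not covered. The core was absent from the Cyp2s1 window. It occurred once in Tiparp, from -170 to -166 relative to the start site, once in Cyp1b1, from -76 to -72, and once in Cyp1a1, from -54 to -50. Of the other genes, Arnt held 1 core, Ahrr 3 and Nqo1 0. The Ahr promoter was not analysed here. The same letters are in 32.4% of 32851 promoter windows of this length, so a single match is common. An extended core, TNGCGTG, was found in 5.07% of windows and, of the 7 genes, in Ahrr alone. The estrogen response element GGTCANNNTGACC and the forkhead core TAAACA were in none of the 7 windows, against 0.07% and 13.4% of all windows. The shorter GGTCA, which also matches within the full element, was in Cyp1a1, Cyp1b1 and Arnt and in 40.5% of all windows. Both strands were searched for each motif.

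The receptor itself, Ahr, fell under the FOXL2 siRNA label, whichever treatment was given. Its log2 signal in the 2 arrays of control siRNA with vehicle was 10.82 and 10.50. With control siRNA and E2 it was 10.68 and 10.38. With FOXL2 siRNA it was 9.98 and 9.48 under vehicle, and 9.76 and 9.48 under E2. All 4 arrays labelled FOXL2 siRNA thus lay below all 4 control siRNA arrays. Arrays of the labels were apart, in either direction, for 20.9% of all genes. The mean over both treatments changed by -0.92 (SE 0.14, 95% interval -1.25 to -0.59, limma adjusted p = 0.00547), to 52.8% of the control signal. Of the 6 genes counted (the 7 that passed the filter without Cyp2s1, which earlier results had picked out), Ahr was the 1 called in this mean, and 12.6% of all genes were called. A second fit added the replicate number as a term, since same-numbered arrays deviated together, and called 3 of 6 in this mean (Ahr, Cyp1b1 and Tiparp) against 27.7% of all genes. Its values are given below, as those with a replicate term, where they change a call.

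Taken by treatment, Ahr changed by -0.93 with vehicle (SE 0.20, limma adjusted p = 0.0356) and by -0.91 with E2 (SE 0.20, limma adjusted p = 0.0488). With vehicle, Ahr was the 1 gene of 6 called, against 6.56% of all genes, and with a replicate term 3 were (Ahr, Cyp1b1 and Nqo1), against 18.7%. With E2, Ahr and Tiparp were called, 2 of 6, against 4.39% of all genes. Both single values lie near the threshold. The vehicle call held in 3 of 8 fits that each left out 1 array (limma adjusted p up to 0.175, when replicate 2 of FOXL2 siRNA under vehicle was left out), and the E2 call in 2 of 8 (up to 0.260, when replicate 1 of control siRNA under E2 was left out). Each of the calls was lost when any array of its own 2 groups was left out, apart from replicate 1 of FOXL2 siRNA under vehicle in the first, and also without either array of the remaining control group. The values with 1 array left out ran from -1.18 to -0.68 with vehicle and from -1.06 to -0.76 with E2. The call for the mean of both held in all 8, with a highest limma adjusted p of 0.0275. With the control labels exchanged, the vehicle value was -0.80 (limma adjusted p = 0.0703) and the E2 value -1.04 (limma adjusted p = 0.0309), where 4.67% and 4.87% of all genes were called. The vehicle value with exchanged labels was called with a replicate term (limma adjusted p = 7.5e-05).

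Ahr is read by 2 probes. The bright probe, A_55_P2109613, carries nearly all of the signal and changed by -0.93 over both treatments (SE 0.14, limma adjusted p = 0.00748). The dim probe, A_65_P06603, gave -0.54 (SE 0.40, limma adjusted p = 0.491), a value of the same sign that did not pass the test. The E2 differences of Ahr lay within the spread of its replicates. They were -0.13 with control siRNA (95% interval -0.59 to 0.34), or 0.13 with labels exchanged, and -0.11 with FOXL2 siRNA (-0.58 to 0.36).

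Arnt, which encodes the partner that AHR needs on DNA, was not called in any comparison. The mean log2 signal of Arnt lay between 8.87 and 9.03 in the 4 groups, and arrays of the groups overlapped in every comparison. Over both treatments FOXL2 siRNA gave -0.07 (95% interval -0.32 to 0.17, limma adjusted p = 0.714). The E2 differences were -0.16 with control siRNA (-0.50 to 0.19), or 0.16 with labels exchanged, and -0.02 with FOXL2 siRNA (-0.36 to 0.33). Of its 3 probes, 2 were well above background on all 8 arrays and the dimmest on 4. AHRR, the repressor that competes with AHR for ARNT, gave group means between 6.46 and 6.58. Its arrays spanned 5.99 to 7.18, and the FOXL2 siRNA effect over both treatments was -0.09 (95% interval -0.86 to 0.68). Replicate 2 of Ahrr was above replicate 1 in all 4 groups, by 0.60 to 1.19. This spread enters the interval, and changes of Ahrr within the interval were not resolved. One of its 2 probes stayed at background on all 8 arrays.

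**Figure D1:**
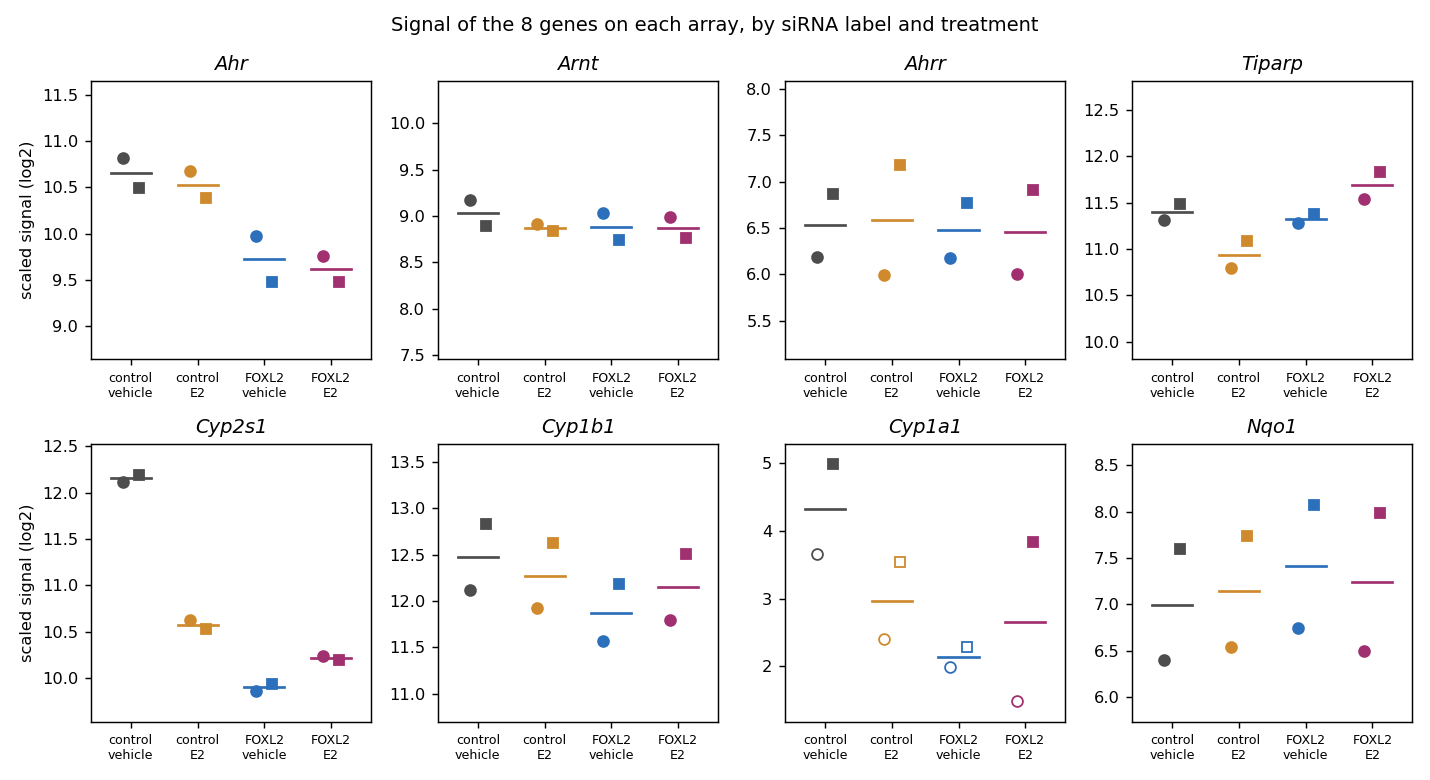
Log2 scaled signal of each gene on each of the 8 arrays, by group; circles are replicate 1, squares replicate 2, horizontal lines group means, and open symbols arrays on which the gene was not well above background. Ahr is lower on all 4 arrays labelled FOXL2 siRNA, Cyp2s1 is highest with control siRNA and vehicle, Tiparp is lowest with control siRNA and E2, and Cyp1a1 is above background on 2 of 8 arrays; panels have their own vertical ranges.

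Tiparp encodes an ADP-ribosyltransferase that is induced by AHR and limits its activity. Its 2 arrays read 11.31 and 11.48 with control siRNA and vehicle. With control siRNA and E2 they read 10.79 and 11.09. With FOXL2 siRNA they read 11.27 and 11.38 under vehicle and 11.54 and 11.83 under E2. The lowest group was therefore control siRNA with E2 and the highest FOXL2 siRNA with E2, and the vehicle groups overlapped each other.

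With E2, Tiparp rose by 0.75 in the arrays labelled FOXL2 siRNA (SE 0.14, 95% interval 0.42 to 1.07, limma adjusted p = 0.0270), to 168% of the control signal. With vehicle the value was -0.07 (95% interval -0.39 to 0.25, limma adjusted p = 0.852). The mean of both, 0.34, did not pass the test (SE 0.10, limma adjusted p = 0.0641), but it did with a replicate term (limma adjusted p = 0.00114). The E2 call was kept in 5 of 8 fits with 1 array left out. It was lost when either array of control siRNA under E2 was left out (0.60 without replicate 1, 0.89 without replicate 2) and when replicate 2 of FOXL2 siRNA under E2 was left out (0.60), with limma adjusted p of up to 0.164. With the control labels exchanged, it was not called with either treatment, at 0.39 with vehicle and 0.29 with E2 (limma adjusted p = 0.186 and 0.336). Both of these values passed with a replicate term (limma adjusted p = 0.00769 and 0.0357), where 17.3% and 16.1% of all genes were called.

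For E2 itself, 0 of the 6 genes were called by limma with either siRNA, and 0 were called for the difference between the E2 effects. The share of all genes called was also low, 0.0192% with control siRNA, 0.0128% with FOXL2 siRNA and 0.243% for the difference. Tiparp was in each case the 1 gene of 6 with an unadjusted limma p under 0.05. Its E2 difference was -0.46 with control siRNA (SE 0.14, limma adjusted p = 0.832) and 0.36 with FOXL2 siRNA (SE 0.14, limma adjusted p = 1.00). In both cases the 2 arrays with E2 did not overlap the 2 with vehicle, as was so for 27.2% and 27.6% of all genes. The first of these values becomes 0.46 when the control labels are exchanged, and the difference between the E2 effects then goes from 0.82 (SE 0.20, limma adjusted p = 0.363) to -0.10 (SE 0.20). With a replicate term, the E2 difference of Tiparp with control siRNA was called (limma adjusted p = 0.0249, 1.16% of all genes called), with either sign of the labels, and so was the difference between the E2 effects (limma adjusted p = 0.00336, 2.12% of all genes called), but not with labels exchanged (limma adjusted p = 0.933). Both probes of Tiparp gave like values, 0.75 and 0.75 for FOXL2 siRNA with E2, where the dimmer one, A_55_P1985890, passed the test in the fit of single probes (limma adjusted p = 0.0197) and the brighter one, A_51_P514961, did not (limma adjusted p = 0.0813).

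**Figure D2:**
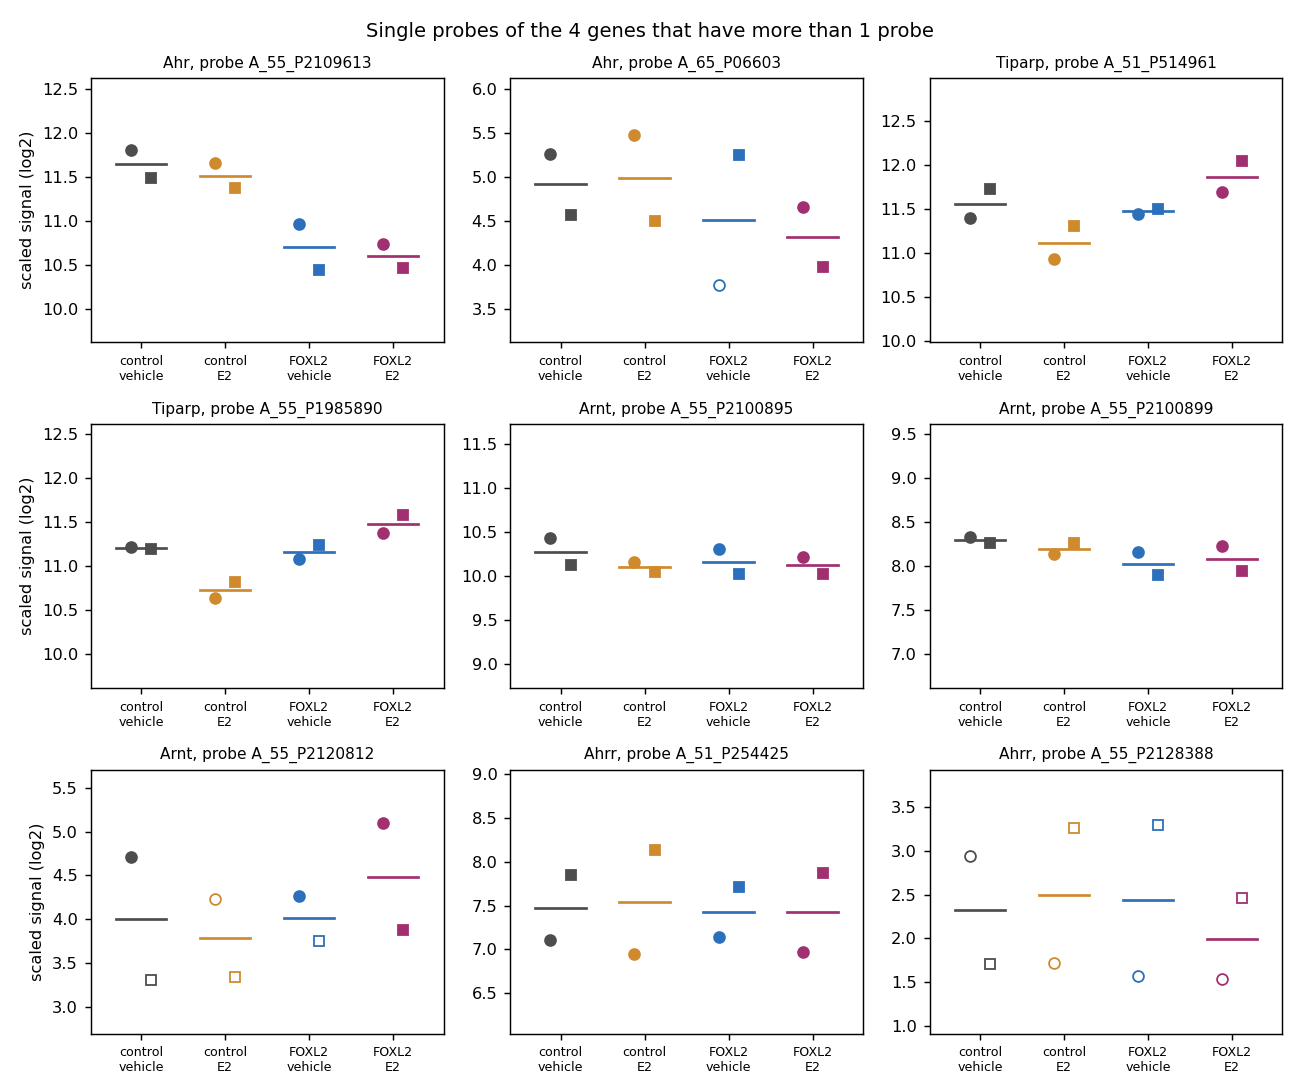
Log2 scaled signal of the single probes of Ahr, Tiparp, Arnt and Ahrr on each array, with symbols and lines as in the plot of the 8 genes. The bright Ahr probe is lower on the 4 arrays labelled FOXL2 siRNA while the arrays of the dim probe overlap, and both Tiparp probes show the same order of groups.

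Cyp2s1 stood apart in all 4 groups, with close replicates. Its signals were 12.12 and 12.19 with control siRNA and vehicle, and 10.62 and 10.53 with control siRNA and E2. With FOXL2 siRNA they were 9.87 and 9.93 under vehicle and 10.24 and 10.19 under E2. The SD within a group was 0.03 to 0.07 (n = 2), and no 2 groups overlapped. Among all genes, E2 and vehicle arrays were apart for 27.2% with control siRNA and 27.6% with FOXL2 siRNA. Arrays of the siRNA labels were apart for 46% with vehicle and 48% with E2. Cyp2s1 was picked by its E2 difference with control siRNA, so close replicates and separation of those groups come with that choice. From high to low, the order was control siRNA under vehicle, then control siRNA under E2, then FOXL2 siRNA under E2 and last FOXL2 siRNA under vehicle.

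Because Cyp2s1 was picked out from these arrays, most of its differences are given with no test. It was 4.78-fold lower with FOXL2 siRNA under vehicle (-2.26) and 1.28-fold lower under E2 (-0.36), and the mean of both was -1.31, or 40.4% of the control signal. With E2 it was 2.99-fold lower than with vehicle in control siRNA arrays (-1.58). With FOXL2 siRNA the E2 difference was 0.32, which did not pass the test over all genes (SE 0.09, 95% interval 0.12 to 0.52, limma adjusted p = 1.00). The SE and interval of this value use a spread shared by all groups, including the control siRNA arrays that picked out the gene. Close replicates in those arrays come with that choice, so the interval is not independent of it. With the control labels exchanged, Cyp2s1 would be 1.58 higher with E2 in control cells, and the FOXL2 siRNA values would be -0.68 with vehicle and -1.94 with E2. Under either reading all 4 arrays labelled FOXL2 siRNA lay below all 4 labelled control siRNA. Such a separation, in either direction, held for 20.9% of all genes. One probe, A_55_P1966749, reads the gene.

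Cyp1b1, which hydroxylates estradiol and many pollutants, was not called in any comparison by the fit without a replicate term. Its group means ran from 11.87 with FOXL2 siRNA and vehicle to 12.48 with control siRNA and vehicle, each with an SD of 0.44 to 0.50 (n = 2). Replicate 2 was above replicate 1 in all 4 groups, by 0.62 to 0.71. The effect of FOXL2 siRNA was -0.60 with vehicle (95% interval -1.43 to 0.23, limma adjusted p = 0.422) and -0.12 with E2 (-0.95 to 0.71). With labels exchanged these values were -0.40 and -0.33 (limma adjusted p = 0.611 and 0.714). With a replicate term, Cyp1b1 passed the test over both treatments (-0.36, limma adjusted p = 0.000358) and with vehicle (limma adjusted p = 0.000164). It then also passed for the difference between the E2 effects (0.48, limma adjusted p = 0.0435). With a replicate term and exchanged labels, FOXL2 siRNA was called with vehicle and with E2 (limma adjusted p = 0.00374 and 0.0127), and the difference between the E2 effects was 0.070 and was not called (limma adjusted p = 0.952). E2 gave -0.21 with control siRNA (-1.03 to 0.62), or 0.21 with labels exchanged, and 0.28 with FOXL2 siRNA (-0.55 to 1.11).

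Cyp1a1, the classic readout of AHR activity, was at the edge of detection. Its single probe was well above background on 2 of 8 arrays, replicate 2 of control siRNA with vehicle (31.8 scaled units) and replicate 2 of FOXL2 siRNA with E2 (14.3 scaled units). On the other arrays it read between 2.78 and 12.7 units. Its median of 8.46 units lay at the 34.0th percentile of all genes. For a group with no array above background, each array took the higher of the gene's own signal and the lowest signal among probes well above background. With these values Cyp1a1 was 4.19-fold lower with FOXL2 siRNA than with control siRNA under vehicle. It was 2.56-fold lower with E2 than with vehicle in control siRNA arrays. These are not lower bounds, since Cyp1a1 itself was not well above background at 12.7 units (replicate 1 of control siRNA with vehicle). With the control labels exchanged, both groups of the first comparison are at background and no such value is left. The second value is then the same in size with the opposite direction. Both values rest on 1 group, control siRNA under vehicle, in which 1 of 2 arrays was above background. With FOXL2 siRNA the arrays overlapped, at 2.78 and 14.3 units under E2 and 3.97 and 4.86 under vehicle. Fitted without the filter, the vehicle difference of -2.19 was not called (SE 0.83, limma adjusted p = 0.279), nor was any other.

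NQO1 is a quinone reductase controlled by both AHR and the stress factor NRF2. The group means of Nqo1 lay between 6.99 and 7.41, with replicate 2 higher than replicate 1 in each group, by up to 1.49. Across all genes, 36.1% moved between the replicates in the same direction in all 4 groups. For Nqo1 this spread left wide intervals, with a FOXL2 siRNA effect over both treatments of 0.26 (95% interval -0.85 to 1.37, limma adjusted p = 0.789). The E2 differences were 0.15 with control siRNA, or -0.15 with labels exchanged, and -0.17 with FOXL2 siRNA, each with an SE of 0.68. With a replicate term, FOXL2 siRNA with vehicle was called (0.42, limma adjusted p = 0.0461), but not with labels exchanged (0.27, limma adjusted p = 0.190).

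**Figure D3:**
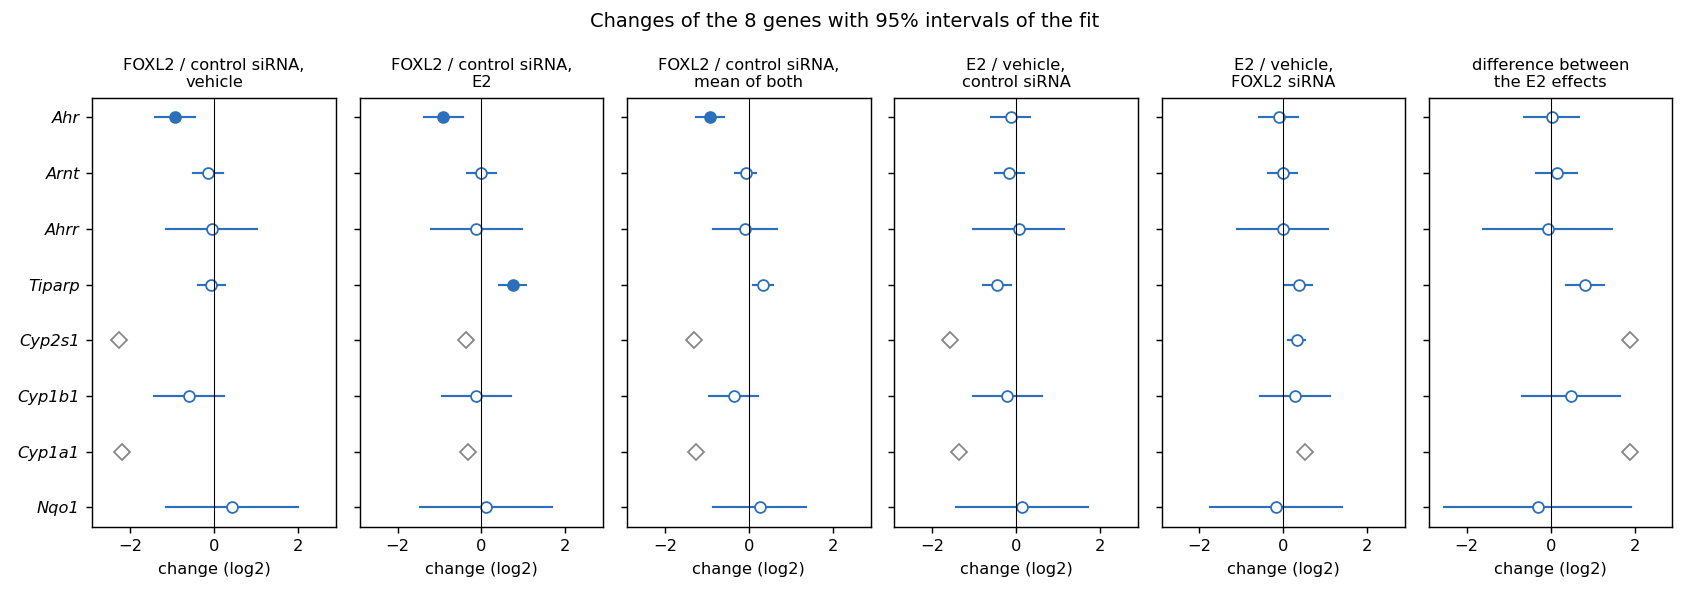
Log2 change of each gene in 6 comparisons (horizontal axis), with 95% intervals from the limma fit; filled points passed the adjusted threshold of 0.05, open circles did not, and grey diamonds are values given with no test (Cyp2s1 and Cyp1a1). Ahr is filled in the 3 FOXL2 siRNA comparisons, Tiparp in that with E2, and no point is filled for E2.

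Around these genes, 8 lists of the same pathway held 68 genes on the array, of which 54 passed the filter. The lists, like the genes above, were drawn up with earlier results of these arrays known. In the mean over both treatments, 3 of the 54 rose with FOXL2 siRNA and 1 fell, against 12.6% called among all genes, and 18 had an unadjusted limma p under 0.05. The replicate term gave 17 that rose and 7 that fell, against 27.7% called among all genes, and the counts by list that follow are without it. For E2, 0 of the 54 were called with either siRNA or for the difference, and 3, 0 and 0 had an unadjusted limma p under 0.05. In the cytoplasmic complex that holds AHR, the chaperone genes Hsp90aa1 (0.17 over both treatments, SE 0.09, limma adjusted p = 0.303) and Hsp90ab1 (-0.11, SE 0.07, limma adjusted p = 0.326) were well above background on all 8 arrays and were not called. The median over all genes tested was -0.00261. Of 13 other bHLH-PAS factors, the family of AHR and ARNT, 9 were tested and 0 called (2 with an unadjusted p under 0.05 over both treatments, median 0.11). All 12 other PARP family genes, relatives of Tiparp, were tested and 0 were called (5 with an unadjusted p under 0.05, median 0.14). The electron donors of the P450 enzymes, including Por, gave 0 calls of 4 (1 with an unadjusted p under 0.05, median 0.06).

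The calls lay elsewhere. Gstm1, a glutathione transferase that can conjugate quinones, rose by 1.12 over both treatments (SE 0.15, limma adjusted p = 0.00283) and by 1.17 with E2 present (SE 0.21, limma adjusted p = 0.0231), or 1.04 with the control labels exchanged (limma adjusted p = 0.0347). It was 1 of 5 tested genes of estrogen and catechol conjugation, whose median was 0.22. Nfe2l2, which encodes NRF2 and is itself an AHR target, rose by 0.37 over both treatments (SE 0.07, limma adjusted p = 0.0148), and was 1 of 6 tested in the list of other AHR-regulated genes (median 0.22). With the malic enzyme gene Me1 (0.65, SE 0.15, limma adjusted p = 0.0275) it was also 1 of 2 called among the 10 genes of the NRF2 pathway (median 0.12). Me1 makes NADPH, and the other 8 genes of that list, with values between -0.58 and 0.58, were not called. Kyat3, an aminotransferase that makes kynurenic acid, an AHR ligand, fell by 0.34 over both treatments (SE 0.08, limma adjusted p = 0.0268). With vehicle its value was -0.50 (SE 0.11, limma adjusted p = 0.0351), which was called, but with the control labels exchanged it was -0.26 (limma adjusted p = 0.249), and -0.42 with E2 (limma adjusted p = 0.0772), neither called. It was 1 of 4 tested of 9 kynurenine pathway genes (median -0.19). The enzymes that start this pathway, Ido1, Ido2 and Tdo2, were at background on all 8 arrays.

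**Figure D4:**
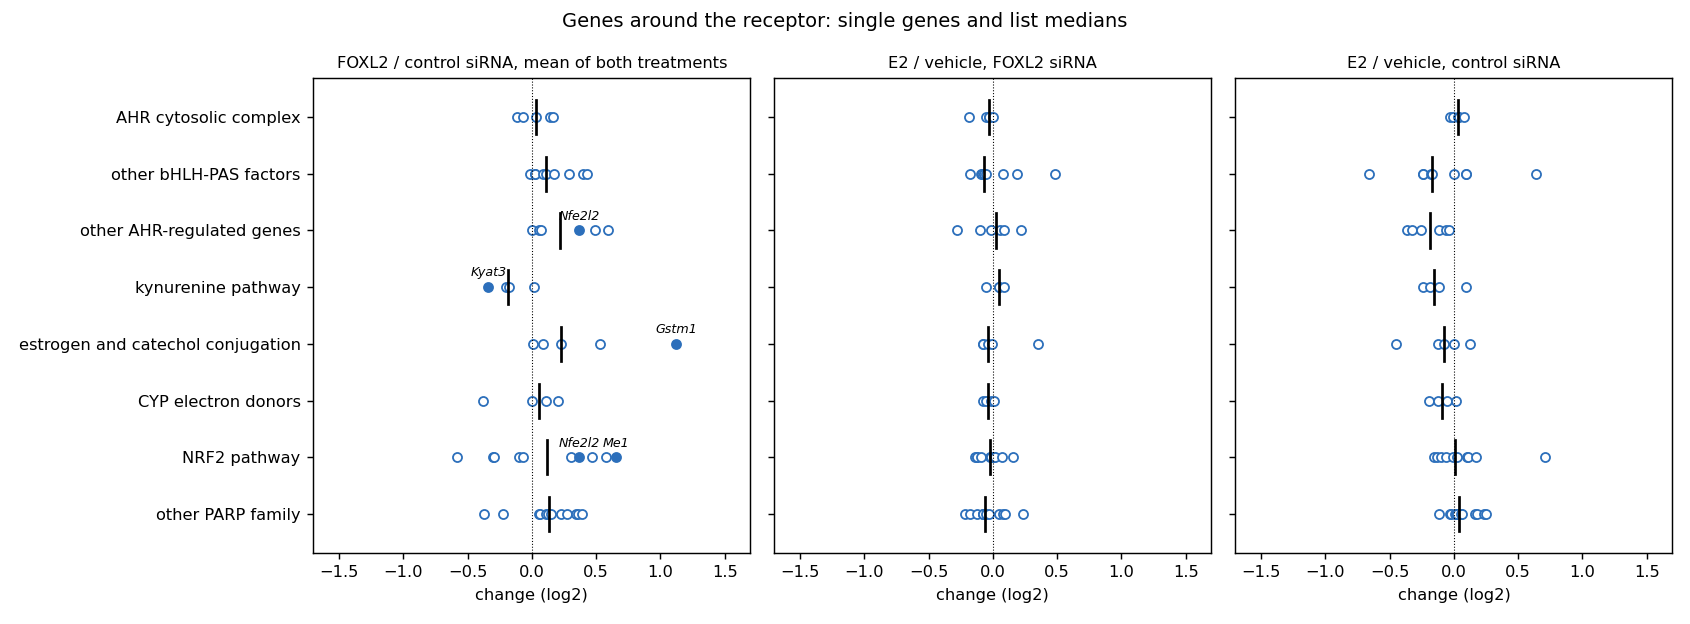
Log2 change (horizontal axis) of each tested gene of 8 pathway lists in 3 comparisons; filled points with names passed the adjusted limma threshold of 0.05, and black bars are list medians. Named genes appear for FOXL2 siRNA over both treatments, led by Gstm1 at 1.12, and none appears for E2 with either siRNA.

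The other genes of the CYP1 to CYP4 families numbered 69 on the array, and 36 of them were at background on all 8 arrays. Of the 29 tested, 3 rose and 2 fell over both treatments, against 12.6% called among all genes, and 0 were called for E2 with either siRNA (1 and 0 with an unadjusted limma p under 0.05) or for the difference (1). Cyp4b1 fell by 1.59 on the log2 scale over both treatments (SE 0.15, limma adjusted p = 0.000853). By treatment it fell by 1.80 with vehicle (SE 0.22, limma adjusted p = 0.00423) and by 1.39 with E2 (limma adjusted p = 0.0143), or by 1.75 and 1.43 with the control labels exchanged (limma adjusted p = 0.00632 and 0.0127). Cyp4f18 fell by 0.49 over both treatments (SE 0.11, limma adjusted p = 0.0221). Cyp4f14 rose by 0.80 over both treatments (SE 0.13, limma adjusted p = 0.00704) and Cyp4f15 by 0.67 (SE 0.11, limma adjusted p = 0.00649). By treatment, the call of Cyp4f14 was with vehicle (1.09, SE 0.18, limma adjusted p = 0.0148), where exchanged labels gave 0.77, not called (limma adjusted p = 0.0611), and a call with E2 instead (0.82, limma adjusted p = 0.0486). The call of Cyp4f15 was with E2 (1.00, SE 0.15, limma adjusted p = 0.0126), where exchanged labels gave 0.56, not called (limma adjusted p = 0.0866), and a call with vehicle instead (0.77, limma adjusted p = 0.0316). Cyp4b1 oxidises fatty acids and small xenobiotics, and the Cyp4f enzymes hydroxylate fatty acids and leukotrienes. The fifth called gene was Cyp2u1 (0.33 over both treatments, limma adjusted p = 0.0463).

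Some genes listed as markers of other cells also moved with the FOXL2 siRNA label. The summed signal of 3 theca markers was 18946 to 21891 scaled units on control siRNA arrays and 35863 to 37968 on FOXL2 siRNA arrays. Cyp11a1 had the highest signal of these and rose by 0.89 over both treatments (limma adjusted p = 0.000195). It was the 1 called of the 2 tested, and Cyp17a1 was not called (0.62, limma adjusted p = 0.110). Lhcgr was at background on all arrays. The summed signal of 8 epithelial markers was 17424 to 19623 on control siRNA arrays and 24698 to 26752 on FOXL2 siRNA arrays. Krt18 and Krt8 had the highest signals of that list. Epcam and Cdh1 were well above background on 2 and 1 of 8 arrays and were not tested. Of the 6 tested, 4 rose (Krt8, Krt18, Upk1b and Upk3b). The called counts of both lists stand against 12.6% called among all genes, and arrays of the labels were apart for 20.9% of all genes. With a replicate term, 2 of 2 theca and 5 of 6 epithelial markers were called, against 27.7%. Of the granulosa list, 1 of 6 tested was called, Esr2, which fell by 0.46 (limma adjusted p = 0.0167), and 2 of 6 were called with a replicate term. Summed signals of macrophage, stromal and oocyte markers overlapped between the labels. Those of the 5 endothelial markers did not overlap within a treatment. They were 1252 to 1816 units with control siRNA and 1893 to 1954 with FOXL2 siRNA under vehicle, and 1102 to 1490 and 1592 to 1690 under E2. Among single genes, arrays did not overlap in these comparisons for 46% of all genes with vehicle and 48% with E2. Kdr had the highest signal of the 5 and was not called (0.36 over both treatments, limma adjusted p = 0.141). Of the macrophage, endothelial, stromal and oocyte lists 0 genes were called (1, 1, 1 and 0 with an unadjusted limma p under 0.05 over both treatments), and with a replicate term 1 of 4, 1 of 2, 3 of 4 and 0 of 1 were. Ptprc, Cdh5, Tek and Emcn were at background on every array, but Itgam, Csf1r, Cd68, Kdr and Pecam1 were well above background on all 8. Whether these markers were read from other cell types or from the follicular cells themselves was not tested. The part of these cell types in the changes of Ahr and Cyp2s1 was not tested either.

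The genes whose pattern over the 8 arrays was most like that of Cyp2s1, among 12585 genes compared, were Nbeal2 (Pearson r = 0.99), Olfm1 (0.98), Nxf2 (0.97), Rnf19b (0.97) and Utp20 (0.97). Olfm1 went from 7.23 with control siRNA and vehicle to 5.77 with control siRNA and E2, 5.00 with FOXL2 siRNA and vehicle and 5.59 with FOXL2 siRNA and E2, the order found for Cyp2s1. A like order comes with choosing genes by this correlation. For Cyp1b1 the nearest were Kank3 (0.99), Cdc42bpg (0.99), H2al1a (0.98), Fam98a (0.98) and Cpt1c (0.98). These correlations describe 8 arrays that share groups and replicate numbers.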

How the data were processed

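RNA of the 8 samples was amplified from 50 ng, labelled with Cy3 and hybridised to one-colour Agilent arrays on 1 slide, which leaves no slide or scan to compare as a batch. Per the file headers, the deposited scanner files hold spot intensity from Agilent Feature Extraction 11.5.1.1 after background subtraction by the authors' software. The authors' processed table is on the log2 scale. Its values matched the log2 mean of the processed intensity over a gene's probes, less 1 constant per array, within 0.001 at 98.7 to 98.9% of entries, so genes were not centred over arrays. The submitters' processing notes also name Genespring 12. The study's last median subtraction was left out here and tried as an alternative.

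After removal of 3671 control spots of 62976 and of 42 non-uniform probes, 55639 probes remained. The 75th percentiles used for scaling were 275 to 367 units. The share of probes well above background was 51.4 to 55.7%, and 0 were saturated. Intensities carry no read depth, and 2 arrays a group limit the precision. A gene's value is the linear mean over probes with its Entrez ID in the authors' table. The 15637 genes with a median of at least 10 scaled units were fitted with limma 3.58.1 in R 4.3.3, as 4 group means over 8 arrays with an intensity trend. The two-sided p-values were adjusted by Benjamini-Hochberg over these genes and read at a threshold of 0.05. The fit was first tried on simulated data with noise drawn independently for each array. That trial does not cover the shared deviation of same-numbered samples given below. Replicates correlated at 0.989 to 0.992 across genes. They were separate pools of mice, as the labels give 5 mice per replicate, but whether one pool served all 4 groups is not given in the sources used here. Same-numbered samples deviated together from their group means, with correlations of 0.327 to 0.445 over the 6 pairs of groups, so values with the replicate number as a block are printed where they change a call. This pairing comes from the data and the numbers, and the labels do not state it.

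Symbols came from a RefSeq gene table (22349 of 24232 IDs). The arrays were designed on mm9, and RefSeq promoter windows are on GRCm38.p6, so no array coordinates are printed. The members and lists were chosen with earlier results of these data known. Cyp2s1 was left out of counts of called genes, and it was tested only for E2 with FOXL2 siRNA. That test shares its estimate of the spread with the control siRNA arrays by which the gene was picked. All 8 genes are named. One list is not reported in full here. Of each other list up to 4 called genes are named, in order of the largest change, and Cyp2u1 was named after its values were seen. Alternatives covered background correction (normexp on median spot and background signals, in place of mean signals), normalization, filter, probe choice, the fit, a replicate block, leaving out each array, and the study's own rule of a difference of at least 1 beyond 2 times the summed SDs. Exchanging the vehicle and E2 labels of the control siRNA arrays, alone and with the replicate block, was added after seeing the data. Python 3.11.15 with pandas 2.3.3, numpy 2.4.6 and matplotlib 3.10.9 made the tables and plots.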

Additional observations from a re-analysis of the deposited data

Results flagged for a closer look

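The E2 effects of 2 genes had opposite signs with the 2 siRNAs, without overlap between the arrays compared, as was so for 5.77% of all genes. For Cyp2s1, the 2 arrays with E2 were lower than those with vehicle under control siRNA (-1.58) and higher under FOXL2 siRNA (0.32), a difference of 1.90 that was not tested because these arrays picked out the gene. For Tiparp, the effects were -0.46 and 0.36, and their difference of 0.82 did not pass the test (SE 0.20, limma adjusted p = 0.363), though it did with the replicate number as a term (limma adjusted p = 0.00336). Both patterns rest on the labels of the control siRNA arrays. With vehicle and E2 exchanged there, both E2 effects are positive for each gene, and the differences become -1.26 for Cyp2s1 and -0.10 for Tiparp.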

How the results depend on the processing

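Among the calls, that of Ahr over both treatments held under every setting listed in the processing section that has a test, and in all 8 fits with 1 array left out. The number of the 6 genes called for FOXL2 siRNA with vehicle was 0 with no filter, no intensity trend, only the groups compared or the study's rule. With E2 it was 1 with quantile normalization, the array median subtracted, no filter, the brightest probe or only the groups compared, and 0 with no intensity trend or the study's rule. Over both treatments it was 2 with quantile normalization, where Tiparp was also called. With 1 array left out these counts ranged from 0 to 1, 0 to 2 and 1 to 2. Of all genes, the study's rule called 2.94% with vehicle and 2.35% with E2. Shares of all genes under the other settings of this paragraph are not given here, so those counts cannot be set against them. The cause of the differences between settings was not tested.

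The replicate block, with the replicate number as a term, called 3 genes with vehicle (Ahr, Cyp1b1 and Nqo1), 2 with E2 (Ahr and Tiparp), 3 over both treatments (Ahr, Cyp1b1 and Tiparp), 1 for E2 with control siRNA (Tiparp, -0.46), 0 for E2 with FOXL2 siRNA and 2 for the difference between the E2 effects (Cyp1b1 and Tiparp). Of all genes it called 18.7%, 14.9%, 27.7%, 1.16%, 0.614% and 2.12% in these comparisons, against 6.56%, 4.39%, 12.6%, 0.0192%, 0.0128% and 0.243% without it. With the control labels exchanged as well, the block called 3 with vehicle (Ahr, Cyp1b1 and Tiparp), 3 with E2 (the same genes), 1 for E2 with control siRNA (Tiparp, 0.46) and 0 for the difference. The exchange only turns the sign of the E2 effect with control siRNA, so its share of all genes stays at 1.16%. Shares for FOXL2 siRNA with vehicle and with E2 are given above with the values of Tiparp. The share for the difference is not given here.

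With the vehicle and E2 labels of the control siRNA arrays exchanged, 0 genes were called with vehicle and 1 with E2 (Ahr). The E2 effect with control siRNA was then 1.58 for Cyp2s1, 0.21 for Cyp1b1, 0.13 for Ahr, -0.058 for Ahrr, 0.16 for Arnt, 0.46 for Tiparp and -0.15 for Nqo1. The difference between the E2 effects changed sign for Cyp2s1 (-1.26), Ahr (-0.24), Ahrr (0.040), Arnt (-0.17) and Tiparp (-0.10), and the FOXL2 siRNA effect with vehicle for Arnt (0.012) and Tiparp (0.39).

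Other changes of sign were of values near 0 that were not called. For Ahr the difference between the E2 effects was -0.034 with normexp. For Arnt, FOXL2 siRNA with E2 gave 0.020 with normexp, 0.013 with quantile normalization, 0.0035 with the array median subtracted and 0.013 with the brightest probe, and E2 with FOXL2 siRNA gave 0.0050, 0.0019 and 0.0017 with normexp, quantile normalization and the array median subtracted, and 0.0010 with the authors' table. Leaving out 1 array turned the sign in these ranges. For Ahr they were -0.29 to 0.034 (E2, control siRNA), -0.36 to 0.14 (E2, FOXL2 siRNA) and -0.23 to 0.27 (difference). For Ahrr, FOXL2 siRNA gave -0.39 to 0.29 with vehicle, -0.73 to 0.47 with E2 and -0.39 to 0.21 over both, E2 gave -0.54 to 0.66 and -0.47 to 0.43, and the difference -0.67 to 0.52. For Arnt they were -0.12 to 0.11 (FOXL2 siRNA with E2), -0.16 to 0.13 (E2, FOXL2 siRNA) and -0.0010 to 0.28 (difference). For Cyp1b1 they were -0.48 to 0.24 (FOXL2 siRNA with E2), -0.56 to 0.15 and -0.080 to 0.63 (E2 with each siRNA). For Nqo1, FOXL2 siRNA gave -0.25 to 1.08 with vehicle, -0.64 to 0.85 with E2 and -0.11 to 0.63 over both, E2 gave -0.46 to 0.75 and -0.91 to 0.58, and the difference -1.06 to 0.43. For Tiparp with vehicle the range was -0.16 to 0.018.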
